A study of Drosophila melanogaster with 2 samples.

Results

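The 10 genes described here, vkg, Col4a1, Ppn, SPARC, LanA, LanB1, LanB2, trol, Pxn and Tig, encode matrix proteins that embryonic blood cells of Drosophila melanogaster secrete. They were taken from a written list, and all 10 were found among 13945 protein-coding genes on the 6 main chromosome arms. Binding of the transcription factor Gcm was mapped by chromatin immunoprecipitation and sequencing, with an antibody against green fluorescent protein. The embryos were whole, 0 to 16 hours old and pooled from males and females. All came from the strain gcm-GFP, whose flies stably express Gcm with green fluorescent protein fused to its C-terminus, and both samples carry 1 donor label. The 2 biological replicates, numbered 1 and 3, form 1 group, so there is no comparison between groups. The labels do not say which promoter drives the fusion, and the blood cells were not isolated. Peak lists do not show whether a gene was transcribed, so expression of these genes in blood cells could not be checked.

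The basement membrane is the thin sheet of matrix that underlies epithelia and wraps muscle, nerve and gut. Laminin trimers bind cells and start its assembly, collagen IV forms the load-bearing network, and perlecan links the networks and holds growth factors. In the fly embryo, plasmatocytes, the macrophage-like blood cells, migrate through the body and lay down much of this matrix. Gcm is best known for directing glial fate, and it also acts early in the development of these blood cells.

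The following windows are shown because the results describe them. The first is the highest peak found at any of the 10 genes, and it was chosen after the values were seen. The second is the stretch before the start site of Tig, which holds the highest peak at a gene's own start. Capitals mark the GATA word, which GATA factors such as Srp bind, searched on both strands as AGATA or TGATA followed by A or G. The last 3 are the matrix gene peaks that hold a Gcm word, which capitals mark there. That word was searched on both strands as ATACGGGC, ATACGGGT, ATGCGGGC or ATGCGGGT, so it can also appear as GCCCGTAT, ACCCGTAT, GCCCGCAT or ACCCGCAT. All are given 5′ to 3′ on the strand of the gene, the minus strand in each case, from the Release 6 assembly (dm6), and none overlaps an annotated exon. Except for the Tig window, each is 201 bases centred on the summit, the highest point of the peak.
LanA intron, chr3L:6217345-6217545: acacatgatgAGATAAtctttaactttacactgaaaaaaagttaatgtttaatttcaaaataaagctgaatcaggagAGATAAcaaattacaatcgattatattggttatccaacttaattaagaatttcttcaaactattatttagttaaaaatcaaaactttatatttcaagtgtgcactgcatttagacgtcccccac
Tig upstream, chr2L:6423311-6423610: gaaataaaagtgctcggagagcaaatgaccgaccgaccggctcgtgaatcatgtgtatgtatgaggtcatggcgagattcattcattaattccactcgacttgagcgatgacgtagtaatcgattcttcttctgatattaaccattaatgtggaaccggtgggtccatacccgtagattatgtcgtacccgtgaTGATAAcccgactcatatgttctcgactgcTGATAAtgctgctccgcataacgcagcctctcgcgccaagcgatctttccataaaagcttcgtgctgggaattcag
trol intron, chrX:2539952-2540152: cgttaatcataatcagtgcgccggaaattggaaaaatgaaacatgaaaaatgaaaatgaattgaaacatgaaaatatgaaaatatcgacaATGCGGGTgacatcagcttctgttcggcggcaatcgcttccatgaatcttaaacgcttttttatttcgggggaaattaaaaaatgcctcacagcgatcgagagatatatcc
trol intron, chrX:2540987-2541187: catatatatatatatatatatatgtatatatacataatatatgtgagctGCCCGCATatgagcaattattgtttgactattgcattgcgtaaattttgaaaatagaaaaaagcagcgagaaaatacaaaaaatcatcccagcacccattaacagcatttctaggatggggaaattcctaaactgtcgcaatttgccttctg
trol intron, chrX:2542631-2542831: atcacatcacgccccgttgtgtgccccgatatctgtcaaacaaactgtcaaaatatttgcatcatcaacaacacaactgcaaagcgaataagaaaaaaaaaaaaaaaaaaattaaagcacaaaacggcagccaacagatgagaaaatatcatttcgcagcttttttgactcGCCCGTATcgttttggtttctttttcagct

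Of the 10 genes, LanA, Tig and Pxn held a summit in the IDR-thresholded list. IDR is the irreproducible discovery rate, a measure of how well peak ranks repeat between replicates. A gene counted as holding a summit if one fell inside the gene or in the 2000 bp before its outermost start. These 3 of 10 genes (30.0%, 95% interval 6.67 to 65.2) stood beside 28.2% of all protein-coding genes, so the share was near that of genes at large. The interval is an exact Clopper-Pearson interval for counting error only. In the pooled list, which holds 30000 peaks called on both replicates and reaches far weaker ones, 8 of the 10 had a summit (80.0%, interval 44.4 to 97.5) against 51.2% of all genes. LanB2 and SPARC had 0 pooled summits.

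The matrix genes are long, and length alone gives more room for summits. Their median territory (body plus upstream sequence) was 13.8 kb, against 4.17 kb over all genes. Of the 1182 genes with territories of 10 to 20 kb, 50.3% had an IDR-thresholded summit, and of the 5 matrix genes in that range LanA and Tig did. Per 10 kb of territory the matrix genes held 0.192 IDR-thresholded summits (4 in all) and all genes 0.492. Of the 207857 bp of these 10 territories, trol alone gives 76968 and held 0 of the 4, so that gene lowers this density. The density without trol was not computed. In the pooled list the densities were 1.68 (35 distinct summits) and 2.42. With the gene body alone, LanA was the only one of the 10 with an IDR-thresholded summit, against 13.6% of all genes. The summits of Tig and Pxn lay upstream.

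**Figure D1:**
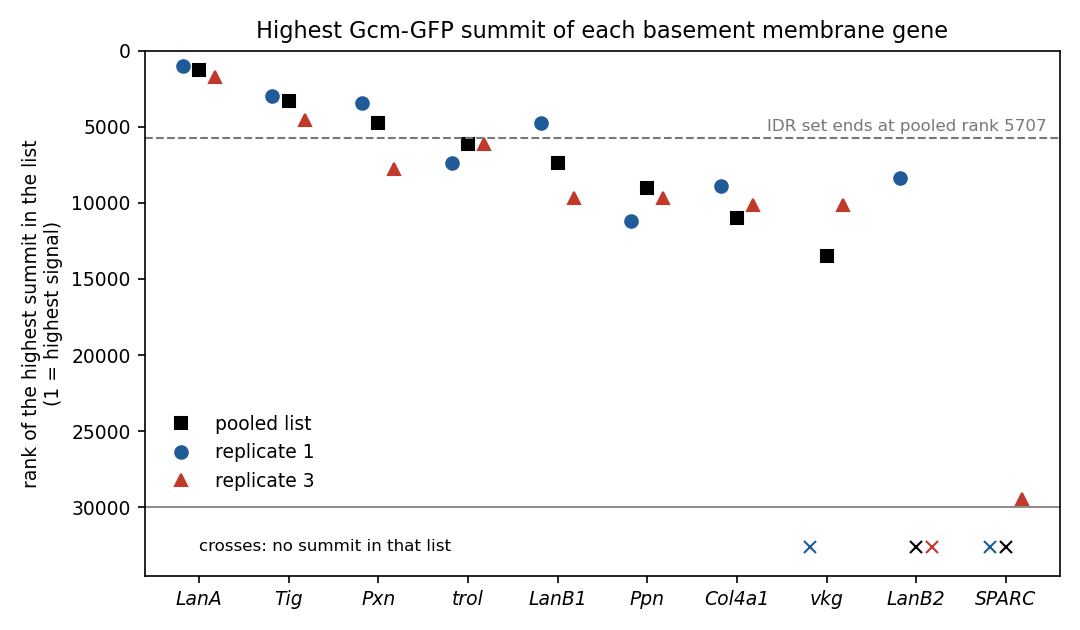
Rank of the highest summit of each gene (vertical axis, 1 is the highest signal of the list) in the pooled list (squares), replicate 1 (circles) and replicate 3 (triangles). Crosses below the line at rank 30000 stand for no summit, and the dashed line is the last rank, 5707, of the IDR-thresholded set. LanA and Tig lie above the dashed line in all 3 lists, Pxn does so in the pooled list and replicate 1, and LanB1 in replicate 1.

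The laminin genes differed among themselves. LanA (FBgn0002526, 3L, 6203831 to 6218022, minus strand), which encodes an alpha chain, held the highest peak of all 10 genes, in an intron 577 bp downstream of its start. Its signal, the height value that the authors' peak caller gave, was 479 and its rank 1262. In their own lists replicate 1 gave this peak a signal of 301 and rank 1006, and replicate 3 a signal of 183 and rank 1721. The rank was 1364 ± 506 (SD, n = 2), so the peak was among the strong ones in both. By highest pooled peak, 9.52% of all genes stood above LanA. A second IDR-thresholded peak lay 799 bp upstream (signal 260, rank 3612), ranked 3909 in replicate 1 and 3977 in replicate 3. That position is also in the territory of the neighbour CG33946, though the start of LanA is nearest. Between them a weaker pooled peak (signal 125, rank 9810) sat 14 bp inside the transcript, in the 5' UTR. The intronic window printed first holds the GATA word in 2 places. Of all IDR-thresholded peaks, 9.65% hold it 2 or more times within 100 bp of the summit. The window lacks the Gcm word.

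LanB1 (FBgn0261800, 2L, 7811438 to 7820771, plus strand), the beta chain gene, held 7 pooled summits and 0 in the IDR-thresholded list. Its highest had a signal of 158 and rank 7354, in an intron 1628 bp downstream of the outermost start. Of similar height were a peak 2214 bp downstream (154) and one 40 bp downstream of the start (155). All 3 ranked higher in replicate 1 than in replicate 3, at 5282 and 11613 for the highest peak. The highest peak that replicate 1 gave LanB1 ranked 4728 and that of replicate 3 ranked 9697. LanB1 therefore enters the 5707 strongest peaks of replicate 1 but not those of replicate 3. Of its 7 summits, 3 lay nearest the start of the neighbour Cdc14, at 32 to 1009 bp, and have signals of 68.0 to 136. LanB2 (FBgn0267348, 3L, 9614914 to 9623980, plus strand), the gamma chain gene, had no summit in the pooled list or in replicate 3. Replicate 1 alone listed 1, 62 bp upstream of the start, with signal 83.7 and rank 8387.

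The collagen IV genes vkg (FBgn0016075, 2L, 5012144 to 5028191, minus strand) and Col4a1 (FBgn0000299, 2L, 5029609 to 5037279, plus strand) encode both chains of the network collagen and lie head to head. Their territories overlap, so 3 of the 4 pooled summits there count for both genes. The highest of these 3, in an intron of vkg 564 bp inside the gene and 182 bp before a second start of vkg, had a signal of 94.4 and rank 13492. Replicate 3 listed it with signal 58.8 and rank 10124, and replicate 1 did not list it. The other 2, with signals of 42.3 and 47.6, ranked 27589 and 25114 and were likewise met by replicate 3 only. The summit that counted for Col4a1 alone lay in a coding exon, 1275 bp from its nearest start, with signal 114 and rank 11004. Both replicates listed it, with signal 79.7 and rank 8922 in replicate 1 and signal 44.6 and rank 14207 in replicate 3. No summit of this pair reached the IDR-thresholded list, and vkg had none in replicate 1.

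Perlecan, a large heparan sulphate proteoglycan, is encoded by trol (FBgn0284408, X, 2470460 to 2545427, minus strand). It held 16 pooled summits, the most of the 10 genes, and none in the IDR-thresholded list. Their signals ran from 39.7 to 180, and 14 lay in introns, 12 of them in the first 15 kb of the gene. The highest, 11410 bp downstream of the outermost start, ranked 6139, just outside the IDR-thresholded set, whose lowest signal was 190. It ranked 7373 in replicate 1 and 6099 in replicate 3 (6736 ± 901, SD, n = 2), and the peak of Pxn 5601 ± 3097. The IDR-thresholded set is the 5707 strongest pooled peaks, and the peak of Pxn (pooled signal 219) is among them. Another peak of trol lay 122 bp upstream of its outermost start, with signal 135 and rank 8951. Summit numbers were alike in the replicates, 14 in replicate 1 and 15 in replicate 3.

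**Figure D2:**
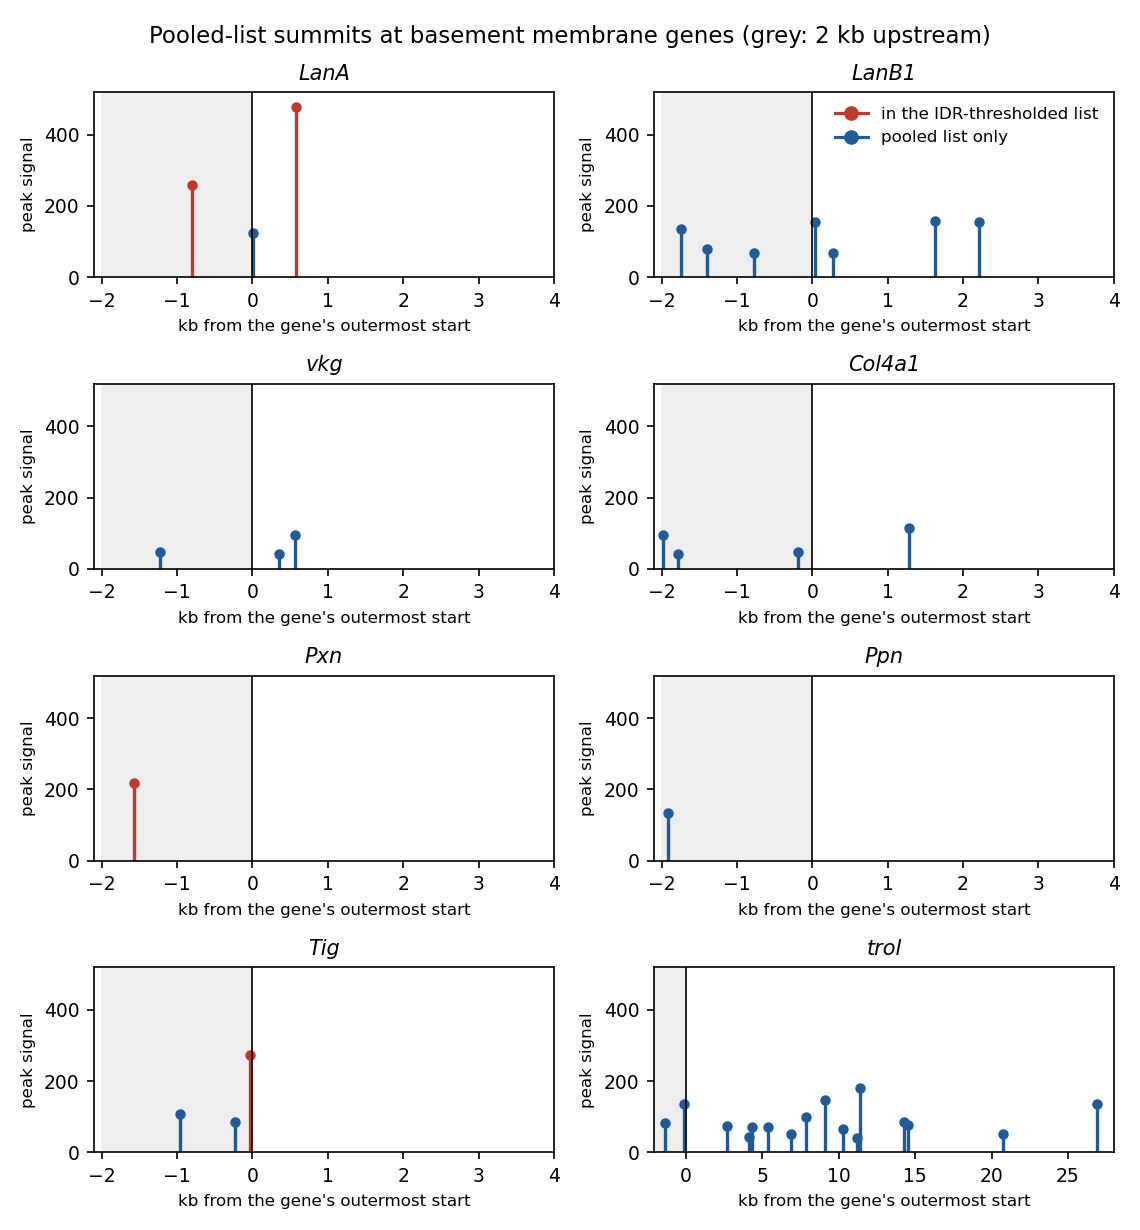
Position (kb from the gene's outermost start site, negative is upstream, grey is the 2 kb counted) and signal of every pooled summit at the 8 genes that had one. Red stands for peaks in the IDR-thresholded list and blue for those in the pooled list only. The trol panel has a longer horizontal axis, and 3 summits appear in both collagen IV panels. LanA has the highest peak, at 479, and the 16 summits of trol stay at or below 180.

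Tig (FBgn0011722, 2L, 6415179 to 6423310, minus strand) encodes tiggrin, a matrix ligand of integrins found at muscle attachments. Its highest peak lay 29 bp upstream of its only start site, with signal 274 and rank 3287. Replicate 1 gave it signal 167 and rank 2959, and replicate 3 signal 104 and rank 4546. It was the only one of the IDR-thresholded peaks here within 500 bp of the start of its own gene. A peak 228 bp upstream (signal 85.1) and one 962 bp upstream (signal 108, nearest the start of Fic, 64 bp away) were in the pooled list only. The upstream window printed above holds the GATA word in 2 places and no Gcm word. Of all protein-coding genes, 47.7% hold the GATA word at least 1 time in the 300 bases before their outermost start, and 0.990% the Gcm word. The share with the GATA word in 2 or more places there was not counted.

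Pxn and Ppn encode proteins that act on the matrix. Peroxidasin, the product of Pxn (FBgn0011828, 3L, 2601455 to 2630064, minus strand), crosslinks collagen IV. Its 1 summit, in the IDR-thresholded list with signal 219 and rank 4724, lay 1573 bp upstream, 78 bp from the starts of the neighbours MEP-1 and CG42245. Replicate 1 placed it at signal 154 and rank 3411, and replicate 3 at signal 71.6 and rank 7791, outside the strongest 5707 of that list. No pooled summit lay in the 28610 bp of Pxn itself. Papilin, the product of Ppn (FBgn0003137, 3R, 28520665 to 28540324, minus strand), is a matrix glycoprotein related to ADAMTS proteases. Its 1 pooled summit lay 1914 bp upstream, near the limit of the upstream stretch, with signal 134 and rank 8997. The replicates gave it ranks of 11210 and 9675.

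SPARC (FBgn0026562, 3R, 26869238 to 26871995, minus strand) encodes a calcium-binding glycoprotein that binds collagen IV. It had no summit in the pooled list or in replicate 1, and 1 near the end of the list of replicate 3, with signal 21.2 and rank 29450. Outside its territory, 3856 bp upstream, stood a peak of signal 293 and rank 2937 that lay 1 bp from the start of ms(3)K81. With 5000 bp of upstream sequence, 4 of the 10 genes, SPARC added, had an IDR-thresholded summit, against 36.6% of all genes.

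The order of highest pooled peaks was LanA, Tig, Pxn, trol, LanB1, Ppn, Col4a1 and vkg, with ranks from 1262 to 13492. Around the last rank of the IDR-thresholded set, Pxn (rank 4724) was just inside and trol (rank 6139) just outside. The replicates set this order only in part. LanA and Tig led in both, while Pxn ranked above trol in replicate 1 (3411 and 7373) and below it in replicate 3 (7791 and 6099). In the 5707 strongest peaks of each replicate's own list, LanA, LanB1, Pxn and Tig had a summit in replicate 1, beside 29.0% of all genes. In replicate 3, LanA and Tig did, beside 28.2% of all genes, which gives 3.00 ± 1.41 genes (SD, n = 2). In the whole lists of 30000 peaks, 8 genes had a summit in replicate 1 and 9 in replicate 3, beside 54.0% and 53.1% of all genes.

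Of the 35 pooled summits at the 10 genes, 27 (77.1%, interval 59.9 to 89.6) overlapped a peak of both replicates by at least 1 bp, and 79.3% of all pooled peaks did. A further 5 were met by replicate 3 only and 3 by replicate 1 only. With summits within 100 bp in both replicates, 17 remained (48.6%, interval 31.4 to 66.0), against 55.9% of all pooled peaks. Among these, 10 ranked higher in replicate 1 and 7 in replicate 3, with median ranks of 9462 and 9675. The 3 LanB1 peaks among them all ranked lower in replicate 3. Spearman's rho of their ranks was 0.745 across the 17 peaks, which share libraries and genes and are no independent replicates.

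**Figure D3:**
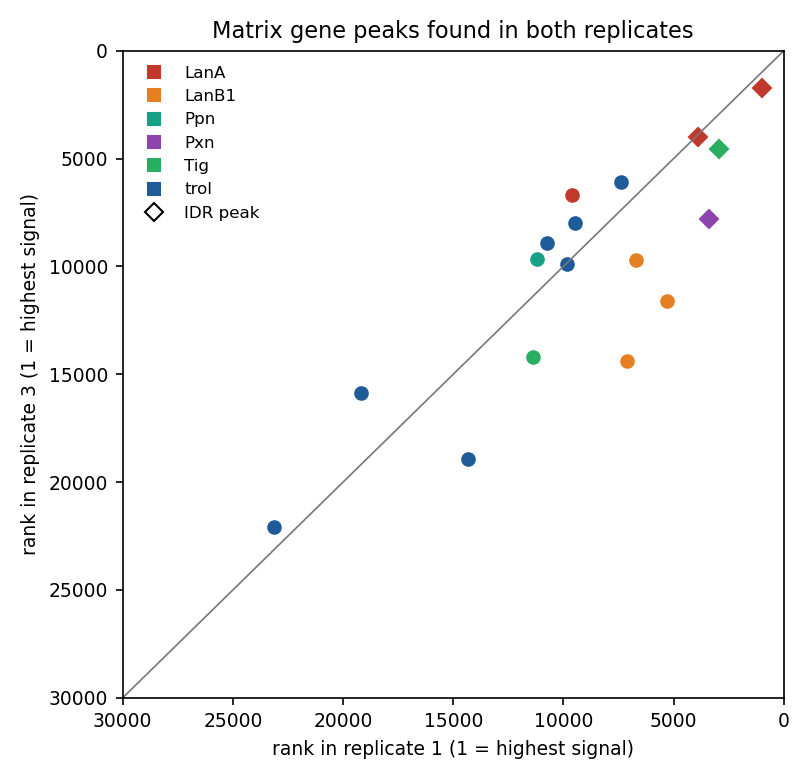
Ranks of the 17 matrix gene peaks with summits within 100 bp in both replicates, in replicate 1 (horizontal axis) and replicate 3 (vertical axis), with the highest signal at the upper right. Colours stand for genes, diamonds for peaks of the IDR-thresholded list, and the line for equal rank. Pxn and the LanB1 peaks lie below the line, at lower rank in replicate 3.

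Most of the 35 summits lay at starts or in introns. Because only genes and their upstream 2000 bp were searched, these summits were compared with the 23893 pooled peaks in the territory of any protein-coding gene, a background added after the data were seen. A promoter position, within 500 bp of a start of any protein-coding gene, was found for 12 (34.3%, interval 19.1 to 52.2), against 31.6% of those peaks. Introns held 19 (54.3%, interval 36.6 to 71.2), against 56.0%. Intergenic sequence held 3 (8.57%, interval 1.80 to 23.1), against 5.79%, so all 3 shares were near those of genes at large. Since trol supplied 16 summits, 14 of them intronic, these shares lean on that gene. Without it, 11 of 19 were at a promoter, a larger share than that 31.6%. The promoter share was thus near that of genes at large only with trol counted. Some of the 11 lay nearest the start of a neighbour, such as Cdc14 at 32 bp and Fic at 64 bp. The nearest start belonged to one of the 10 genes for 30 summits and to a neighbour for 5, and 10 lay also in the territory of a gene outside the list. The bases around the summits were 41.8% G or C at the median, against 40.8% in all pooled peaks.

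The Gcm word lay within 100 bp of 3 of the 35 summits (8.57%, interval 1.80 to 23.1), against 4.77% of all pooled peaks. It lay at 0 of the 4 IDR-thresholded summits, an upper limit of 60.2%, against 9.76% of that list. All 3 were weak intronic peaks of trol, with signals of 71.7, 69.8 and 73.3 and ranks of 17672, 18107 and 17366. The centre of the word stood 6, 47 and 75 bp from the summit. Replicate 1 listed the first with signal 50.5 and rank 15116, and replicate 3 did not list it. The 1 matrix gene summit of replicate 1 with the word was this one. Replicate 3 had 3 with the word, 2 in trol and 1 at the coding exon of Col4a1 (signal 44.6). In all, the trol territory holds 4 Gcm words, 0.520 per 10 kb, where the arms as a whole hold 0.517. Of the 4, 3 lay within 100 bp of a pooled summit, and the same share over all Gcm words was not counted. The territories of vkg, Ppn and Tig hold 2 words each and those of LanA, Col4a1, SPARC and Pxn 1 each. LanB1 and LanB2 hold 0, and none of these other words lay within 100 bp of a pooled summit.

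For each of the other words the interval included the share in all pooled peaks. The GATA word lay at 10 of the 35 summits (28.6%, interval 14.6 to 46.3) against 34.2% of pooled peaks. The ETS word (AGGAA or CGGAA followed by A or G) was at 12 (34.3%, interval 19.1 to 52.2) against 32.0%, and GAGAGAG, bound by the GAGA factor, at 3 (8.57%, interval 1.80 to 23.1) against 5.29%. The Runx word (AACC or GACC, then A or G, then CA), which the blood factor Lz recognises, was at 1, in LanA (2.86%, interval 0.0723 to 14.9), against 7.90%. A word in a window is a description of its letters and does not show that a factor sits there.

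The wider basement membrane was read from a list of 26 other genes. Of these, 13 held an IDR-thresholded summit (interval 29.9% to 70.1%), against 28.2% of all genes. A pooled summit was found at 21 (interval 60.6% to 93.4%), against 51.2% of all genes. They held 0.532 IDR-thresholded summits per 10 kb, and all genes 0.492. Their median territory was 11.4 kb. Of all genes with territories of 10 to 20 kb, 50.3% had an IDR-thresholded summit and 74.5% a pooled one. Both intervals include these shares, though not those of all genes. That range holds the median, but the territories of the 26 genes run from 3490 to 90775 bp. The 26 genes were not matched for length. By role, an IDR-thresholded summit was found at 7 of 9 receptor genes and 3 of 5 genes of collagen processing and secretion. It was found at 2 of 7 remodelling genes and 1 of 5 other matrix components, beside 28.2% of all genes. The difference between these groups and the 10 matrix genes was not tested. No share by role was adjusted for length. Of the 7 receptor genes, mys, scb and Dg have territories of 10593 to 19389 bp, and if, mew, Ddr and Sdc of 33246 to 90775 bp. Of all genes with territories of 20 to 50 kb, 56.6% had an IDR-thresholded summit, and above 50 kb 63.1%.

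The receptor peaks were led by the integrin alpha chain gene scb, at signal 874 and rank 334, 166 bp upstream of its start. Its ranks were 405 in replicate 1 and 277 in replicate 3. Intronic peaks followed in the dystroglycan gene Dg (468), the integrin alpha chain genes if (451) and mew (435), and the syndecan gene Sdc (322). The secretion gene Tango1, needed for export of collagen, had a peak of signal 798 and rank 412 that lay 189 bp from the start of the neighbour CG31635. PH4alphaEFB, a collagen prolyl hydroxylase gene, had a peak of signal 405 inside it, 128 bp from the start of spdo, and one of 367 at 81 bp from its own start. Among the others, Mp, the gene of a multiplexin collagen, reached 495, the metalloproteinase gene Mmp2 428, and its inhibitor gene Timp 356. That Timp peak lay 653 bp upstream of the start of Timp, in an intron of Syn. Replicate 3 alone listed it (signal 187, rank 1651), and replicate 1 had none there. The weaker Timp peak (302), also in the territory of Syn, was listed by both replicates and held the Gcm word. So did 1 peak of Sdc (199), which makes 2 of the 35 IDR-thresholded peaks at these 26 genes (5.71%).

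**Figure D4:**
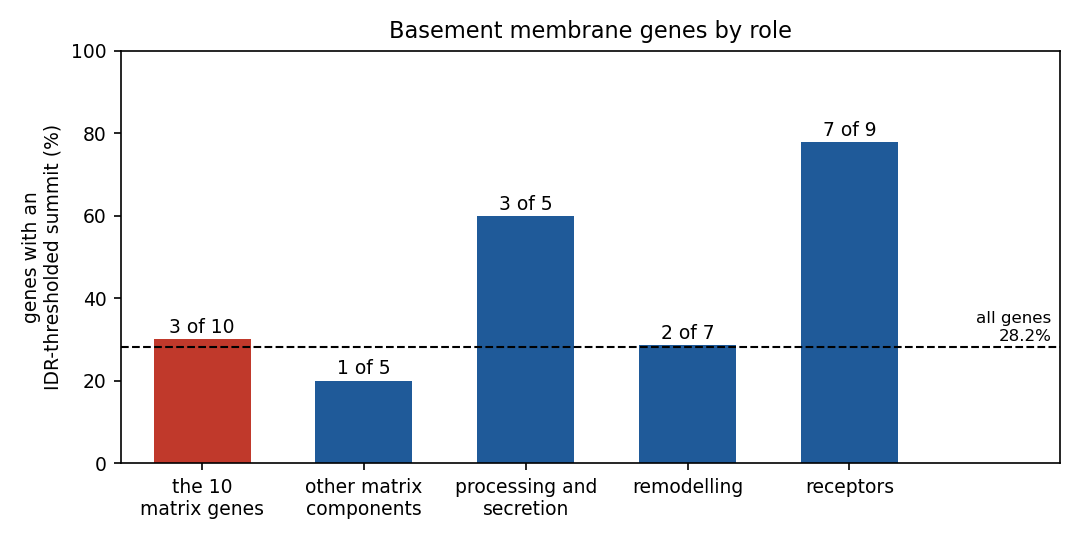
Share of genes with an IDR-thresholded summit (vertical axis, percent), for the 10 matrix genes (red) and for 26 other basement membrane genes by role (blue), with the number of genes above each bar. The dashed line is the share of all protein-coding genes, 28.2%. The 10 matrix genes stand close to that line at 3 of 10, and the receptors at 7 of 9. No bar is adjusted for gene length.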

How the data were processed

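Gcm binding was described from 4 peak lists on dm6. Per the file descriptions deposited with the samples, each replicate has its own list, peaks of the pooled list come from both replicates' alignments and 1 control, and the IDR-thresholded list builds on those 3 lists. No aligner, caller or IDR threshold is named in the sources used here, and the control was not analysed here. The deposited signal of a peak served to describe peaks and to rank them inside their own list. The deposited −log10 q-value is at its ceiling, 4.28, for every IDR-thresholded peak and was not used. The lists hold no read totals, so depth is unknown.

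Lists were joined to protein-coding genes of Ensembl release 115 (BDGP 6.54) with Python 3.11.15, pandas 2.3.3 and scipy 1.17.1. All 5707 IDR-thresholded peaks are in the pooled list, where they are the strongest, and 0 peaks lie past the end of an arm of the Release 6 sequence. The counting was tested on simulated data. No test was run. The 10 genes, the 26 others, the words and the settings were chosen with earlier results of these data known. The rule named all 10 genes, the 10 others of highest IDR-thresholded peak, and the genes whose start or territory shares a summit. Outside this rule, mys and Ddr are named for the length of their territories. Also outside it, wb, Ndg, Glt, prc, Lim3, Ref2, hppy and sty are named under the other observations.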

Additional observations from a re-analysis of the deposited data

How the results depend on the processing

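Of 36 recomputed counts, 22 stayed within 1.5 times the reported one. With the gene body alone, 1 gene with 1 summit was left in the IDR-thresholded list (LanA, against 13.6% of all genes) and 5 genes with 23 summits in the pooled list (29.9% of all genes). The upper 50% of each list by signal left 1 gene with 1 summit (IDR-thresholded, against 17.9% of all genes) and 20 pooled summits. Within 1 kb of a start, 15 pooled summits were counted. Peaks found in both replicates numbered 17 with summits within 100 bp and 4 in the IDR-thresholded list alone, which holds fewer peaks. The Gcm word was at 1 peak with 50 bp each side (3.34% of all pooled peaks), 5 with 250 bp (7.16%) and 1 with the single word ATGCGGGT (1.74%).

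Each replicate alone gave 2 to 4 genes and 3 to 6 summits among its 5707 strongest peaks, 8 to 9 genes and 30 to 37 summits in its whole list, and 1 to 3 summits with the Gcm word. Over 10 genes, 4 IDR-thresholded peaks and 2 replicates, the intervals are wide, and those of the 10 genes include the share of all genes in both the IDR-thresholded and the pooled list. Whether blood cells, a small part of the whole embryo, contribute to these peaks was not tested. No paired analysis was possible because the samples form 1 group.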

Other observations

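The other laminin alpha chain gene, wb (2L, 14263027 to 14328262), held 24 pooled summits and none in the IDR-thresholded list. Its highest, 10596 bp downstream of the outermost start and nearest the start of CG32971, had signal 147 and rank 8068. This peak ranked 12408 in replicate 1 and 5187 in replicate 3. Of the 340 genes with 16 or more pooled summits, the number that trol has, 6 (1.76%) had no IDR-thresholded summit, and trol and wb were both among them, beside Lim3, Ref2, hppy and sty. This count was made after the values of trol and wb had been seen, and genes that overlap share summits. Among the remaining matrix component genes, the nidogen gene Ndg had 1 pooled summit (signal 93.4), the glutactin gene Glt 1 (signal 42.0) and the pericardin gene prc 0.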
